A study of Mus musculus with 63 samples.

Results

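The comparison described here is that of fear conditioning in female mice. Of the 63 dorsal hippocampus libraries, the 32 whose titles and labels gave the sex as F were taken, and 16 libraries of fear-conditioned mice (FC) were compared with 16 of mice that were not conditioned (noFC), with strain and drug as covariates. The other 31 libraries came from males. The 32 female libraries formed 8 groups of 4. For C57BL/6J and for DBA/2J, both inbred strains, there was a group with FC and saline, one with FC and ethanol (EtOH, 1.5 g/kg), one with noFC and saline, and one with noFC and ethanol. All groups shared an adolescent age, an acute injection of either kind and the dissection of the dorsal hippocampus into RNAlater, and none carried a transgene or mutation in the labels. The time from injection or training to dissection, the number and strength of the shocks and what the noFC mice experienced are not given in the sources used here. RNA was measured by stranded mRNA sequencing with single 75 nt reads.

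Fear conditioning pairs a place or a cue with a mild shock, and the dorsal hippocampus encodes the place. Firing neurons take up calcium, and the kinases this activates phosphorylate transcription factors such as CREB and SRF, which switch on the immediate early genes. Among these are transcription factors (Fos, Fosb, Junb, the Egr and Nr4a families) and effector genes that act at synapses (Arc, Homer1). Their transcripts appear soon after a bout of activity and are short-lived. Oligodendrocytes, which wrap axons in myelin, and the choroid plexus, which secretes cerebrospinal fluid into the ventricle beside the hippocampus, can both enter a dissected piece of tissue.

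Total gene counts of the 32 female libraries ranged from 21314277 to 61631742 with a median of 26315132. Conditioned and unconditioned libraries averaged 29930000 ± 9420000 and 26190000 ± 3150000 counts (SD, n = 16 each), and this difference did not pass a permutation test (two-sided, p = 0.12, adjusted p = 0.48 over 4 library measures). The number of genes detected, the mitochondrial share of counts and the share of the 50 most abundant genes had adjusted permutation p-values of 0.67, 0.76 and 0.67. Levels are given in CPM, the count of a gene after each library was brought to the same total. Xist, the RNA of the inactive X chromosome, lay between 769 and 1110 CPM in every one of these libraries, and the Y-linked gene Ddx3y reached at most 1.8 CPM. A log2 difference is FC minus noFC from the edgeR fit unless another contrast is named. The labels do not say that the libraries of a group came from separate animals, so p-values measure the spread between these samples. The letter that ends each title was A or C in all 16 FC libraries and B or D in all 16 noFC libraries. The labels do not say what it marks, and conditioning and the letter cannot be told apart.

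The first question was which genes differed between conditioned and unconditioned females over both strains and both drugs. At a Benjamini-Hochberg adjusted p under 0.05, edgeR's quasi-likelihood test called 0 of 19199 genes (0%), and the smallest adjusted p was 0.947. DESeq2 also called 0. At an unadjusted p under 0.05 there were 943 genes (4.91%) with edgeR, 395 of them higher in FC (2.06%) and 548 lower (2.85%), and 985 with DESeq2. The median log2 difference over all genes was -0.0019 and 9331 genes had a positive value. The errors were small: log2 differences had a median standard error (SE) of 0.054, and for 17614 genes (91.7%) the 95% interval lay within a 1.5-fold difference in either direction. For 18843 genes (98.1%) it lay within a 2-fold difference. Genes and groups below are therefore described by their values, and over both strains and both drugs none of them passed the adjusted test with either tool.

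The 5 genes with the smallest p in each direction had log2 differences between -0.75 and 0.39. Ruvbl1, an ATPase of chromatin remodelling complexes, averaged 22.2 ± 1.08 CPM in FC and 20.4 ± 1.14 CPM in noFC (SD, n = 16 each), a log2 difference of 0.12 (SE 0.03, unadjusted edgeR p = 0.000321, adjusted p = 0.947). In 15 of 16 FC libraries its CPM was above the mean CPM of the noFC libraries of the same strain and drug. Btg2, an early-response gene that restrains proliferation, differed by 0.14 (SE 0.04), again with 15 of 16 FC libraries above their own noFC mean. The others were Xkr4 (0.19), Ddias (0.39, at under 1 CPM) and the neuronal adhesion gene Cntnap5c (0.21), for which 15 of 16 FC libraries were above their own noFC mean. Negative differences with the smallest p belonged to Ninj2, an adhesion protein of the ninjurin family (-0.47, SE 0.12, 1 of 16 FC libraries above), Nmral1 (-0.22), Plpp4 (-0.23), Car5a (-0.75, at under 0.4 CPM on average) and Ddc, the decarboxylase that makes dopamine and serotonin (-0.29). Ninj2 averaged 1.77 ± 0.799 CPM in FC and 2.38 ± 0.71 CPM in noFC (SD, n = 16 each). These SDs span strains and drugs, which the fit takes out. The genes were picked by p from these same libraries, so the counts of FC libraries above or below are not separate support.

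Among the 22 early transcription factors (the cofactor Btg2 included), all of which were abundant enough to test, 19 had positive log2 differences with a median of 0.10. Without adjustment, 10 of the 22 had p under 0.05 with the higher level in FC, and 0 with the lower, where 2.06% and 2.85% of all genes did. The lists here and below were chosen with earlier results of these data known, and their members were measured in the same libraries. Such counts are therefore descriptive and not separate support. Fos, which pairs with Jun proteins to form the AP-1 factor and lies at chr12:85473890-85477273 (GRCm38, plus strand), had a log2 difference of 0.26 (SE 0.08, 95% interval 0.11 to 0.42, unadjusted p = 0.00168, adjusted p = 0.947 by edgeR). Egr2, a zinc-finger factor at chr10:67535475-67542188 (plus strand), also differed by 0.26 (SE 0.09). Fosb differed by 0.22, Nr4a1 by 0.17, Junb and Egr1 by 0.16 each and Btg2 by 0.14. Egr4 (0.19), Maff (0.20) and Egr3 (0.12), named after their values were seen, were the other members with unadjusted p under 0.05. Npas4, a factor that responds to neuronal calcium, averaged 21.5 ± 4.78 CPM in FC and 19.9 ± 5.12 CPM in noFC (SD, n = 16 each), and its 95% interval of -0.02 to 0.25 held 0. The 3 members with negative values, named after these were seen, were Atf3 (-0.07), Jund (-0.06) and Ier5 (-0.01).

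Promoters of these genes were read from RefSeq (GRCm38.p6) to show whether they carry the CREB site. Each sequence below is the 250 bases before the gene's start, 5′ to 3′ on the gene's strand, in lower case with the cAMP response element in capitals. Btg2 (chr1:134079156-134079405, minus strand) is shown for its complete element TGACGTCA at positions -166 to -159 from the start. Fos (chr12:85473640-85473889, plus strand) and Nr4a1 (chr15:101266596-101266845, plus strand) are shown for their copies of the shorter element, which reads TGACG, or CGTCA where it lies on the other strand.
Btg2: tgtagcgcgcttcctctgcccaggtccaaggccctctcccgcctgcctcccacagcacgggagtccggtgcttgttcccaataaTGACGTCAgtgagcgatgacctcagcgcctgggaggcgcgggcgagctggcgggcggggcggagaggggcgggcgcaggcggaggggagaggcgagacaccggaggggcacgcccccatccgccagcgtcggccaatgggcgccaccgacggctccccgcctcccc
Fos: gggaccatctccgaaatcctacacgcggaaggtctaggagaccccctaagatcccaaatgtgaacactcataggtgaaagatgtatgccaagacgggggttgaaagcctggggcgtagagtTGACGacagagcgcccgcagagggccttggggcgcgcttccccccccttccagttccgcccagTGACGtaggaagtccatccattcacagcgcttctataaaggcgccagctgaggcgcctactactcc
Nr4a1: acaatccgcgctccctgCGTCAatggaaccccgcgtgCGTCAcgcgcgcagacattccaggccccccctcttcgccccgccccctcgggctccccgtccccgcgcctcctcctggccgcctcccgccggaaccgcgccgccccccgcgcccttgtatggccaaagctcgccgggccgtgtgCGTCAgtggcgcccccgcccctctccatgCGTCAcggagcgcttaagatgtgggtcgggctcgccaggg
The short element TGACG, which is also contained in the complete one, was searched on both strands. It was present in 13 of the 17 early transcription factors with a RefSeq promoter (76.5%). Over all genes with such a promoter it was present in 5347 of 27025 (19.8%). A gene was counted if any of its promoters held the element. The base composition of the promoters was not taken into account. The complete element TGACGTCA was present in 2 of the 17 (11.8%) and in 1.77% of all. The CArG box, the site of SRF, was searched too. It was present in 1 of the 17, Egr2 (5.88%), and in 1.62% of all. Egr1, Egr3, Klf10, Ier2 and Crem were not matched. Fos held 2 short elements and Nr4a1 held 4. Of 10 matched myelin genes, described below, 0 held the short element and 1 held the CArG box. The match describes letters in the window and is not evidence of binding. Sites outside the 250 bases were not searched, so a count of 0 holds for the window alone.

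Fos was next read in each library. Single combinations of strain and drug were not tested. The share of all genes without overlap within a combination was not counted, here or for the genes below. In C57BL/6J given saline, Fos was at 22.2, 25.9, 26.8 and 30.7 CPM in FC and at 15.2, 18.5, 20.6 and 20.7 CPM in noFC, without overlap. In C57BL/6J given ethanol, the FC libraries read 17.3, 17.6, 17.7 and 17.7 CPM and lay inside the noFC range of 14.0, 16.96, 19.3 and 20.9 CPM. DBA/2J given saline had 23.5, 29.8, 31.2 and 32.4 CPM in FC against 21.8, 25.4, 28.4 and 28.4 CPM in noFC. In DBA/2J given ethanol the FC libraries read 18.0, 24.95, 31.3 and 33.2 CPM, and all but the lowest were above the noFC libraries at 19.0, 20.03, 20.7 and 22.6 CPM. Over all 32 libraries the groups overlapped, from 17.3 to 33.2 CPM in FC and from 14.0 to 28.4 CPM in noFC, and 10 of 16 FC libraries were above their own noFC mean.

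Egr2 was also separated in 1 group. In C57BL/6J given saline its FC libraries stood at 7.40, 7.47, 8.33 and 9.31 CPM, all above the noFC libraries at 4.43, 4.91, 5.85 and 6.998 CPM. In C57BL/6J given ethanol the order of the means was the other way, with 4.01, 4.10, 4.31 and 4.61 CPM in FC and 4.41, 4.78, 4.85 and 5.01 CPM in noFC. Btg2 did not overlap between conditions in C57BL/6J given ethanol, with 23.9, 24.2, 25.4 and 26.1 CPM in FC and 20.9, 21.6, 22.7 and 23.6 CPM in noFC. The summed level of the 22 early transcription factors was higher on average in FC in 4 of 4 combinations of strain and drug, by a ratio of 1.07 averaged over them.

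**Figure D1:**
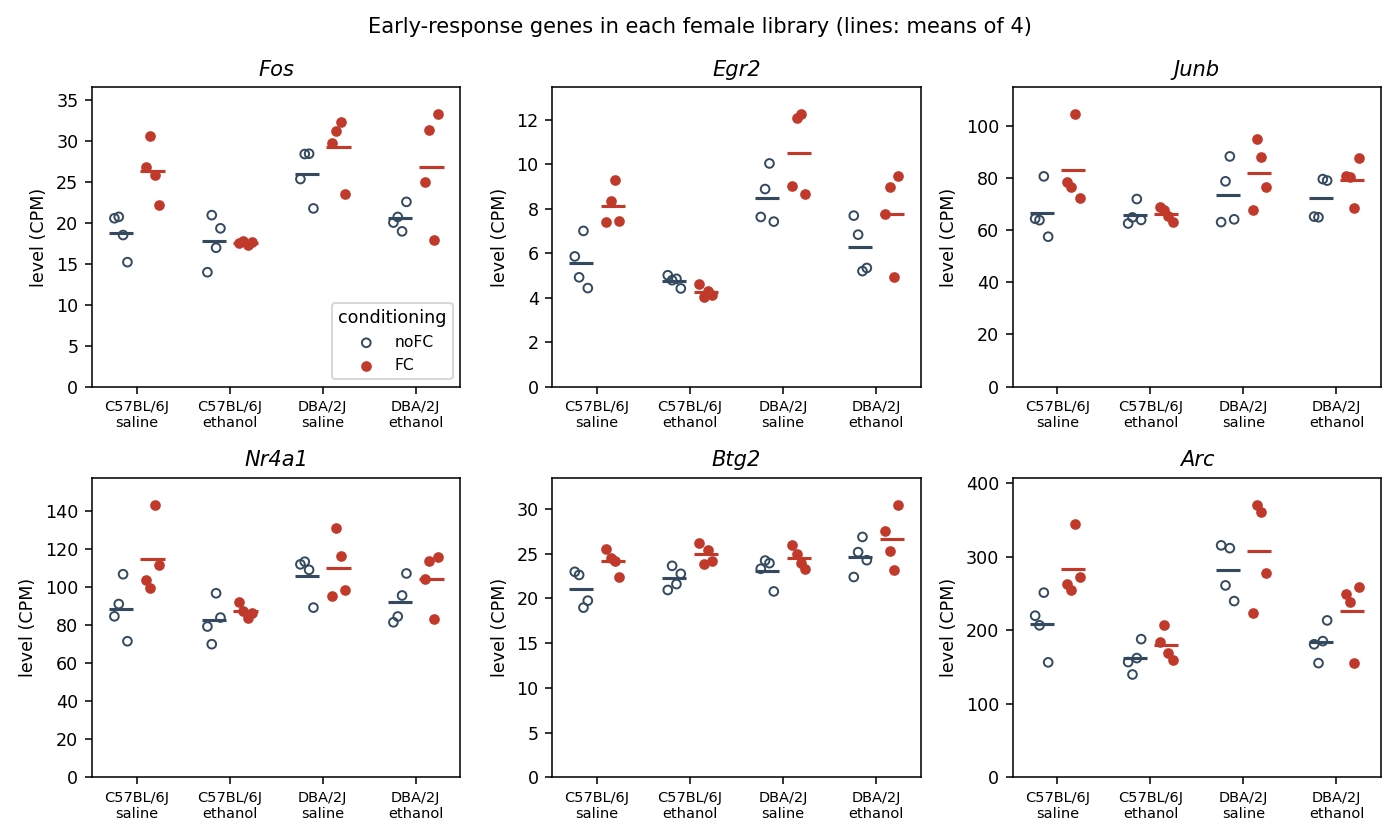
Level in CPM (linear axis from 0) of Fos, Egr2, Junb, Nr4a1, Btg2 and Arc in each of the 32 female libraries, by strain and drug; open points are noFC, filled points FC, and lines the means of 4 libraries. Fos in C57BL/6J given saline reads 22.2 to 30.7 CPM in FC and 15.2 to 20.7 CPM in noFC, whereas with ethanol the FC libraries lie between 17.3 and 17.7 CPM, within the noFC range.

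Of 16 early effector genes, 13 had positive differences (median 0.05) and 3 had unadjusted p under 0.05 with the higher level in FC, against 0 with the lower, where 2.06% and 2.85% of all genes did. Arc, which encodes a capsid-like protein that tunes AMPA receptors at synapses (chr15:74669083-74672570, minus strand), averaged 249 ± 67.2 CPM in FC and 209 ± 54.5 CPM in noFC (SD, n = 16 each), a log2 difference of 0.26 (SE 0.08, unadjusted p = 0.00252, adjusted p = 0.947 by edgeR). Its FC libraries in C57BL/6J given saline stood at 254.5, 263.6, 272.5 and 344.1 CPM, above the noFC libraries at 156.3, 206.7, 219.8 and 251.2 CPM. In the other 3 combinations the FC and noFC values of Arc overlapped. Ptgs2, which encodes the prostaglandin-forming enzyme COX-2, differed by 0.22 (SE 0.07) and Arl5b, a small GTPase, by 0.08. The scaffold gene Homer1 (0.06), the salt-inducible kinase Sik1 (0.15) and the clock gene Per1 (0.01) had unadjusted p above 0.05. Within the promoters of 14 matched effector genes, the short element was present in 10 (71.4%) and the CArG box in 0.

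Genes of the later activity response were measured next. Of 19 delayed activity genes, 14 had positive values (median 0.04) and 1 had unadjusted p under 0.05, which is near the 4.91% of all genes that did. It was Rasgrp1 (0.11), which activates Ras in response to diacylglycerol. Bdnf, the neurotrophin, averaged 54.4 ± 8.9 CPM in FC and 52.2 ± 9.88 CPM in noFC, a log2 difference of 0.06 with a 95% interval of -0.05 to 0.18. Nptx2, a secreted protein that clusters AMPA receptors, had a difference of 0.11 (95% interval -0.02 to 0.23). ERK pathway feedback genes had 10 of 13 positive (median 0.05). At unadjusted p under 0.05, 2 were higher in FC, where 2.06% of all genes were. They were Dusp5, a nuclear ERK phosphatase (0.14), and Errfi1, an inhibitor of EGF receptors (0.09). Among 8 vascular early genes, Apold1 had a difference of 0.20 (unadjusted p = 0.0434) and the matricellular gene Ccn1 one of 0.18 (unadjusted p = 0.0935), both with adjusted p = 0.947 by edgeR.

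Genes of the synapse and its kinases had small positive values. Of all 19199 genes, 9331 had a positive value and 2.06% were higher in FC at unadjusted p under 0.05. All 13 postsynaptic scaffold genes were positive (median 0.05, range 0.01 to 0.08), and the membrane-associated scaffolds Dlg3 and Dlgap1 (0.08 each) had unadjusted p under 0.05. Of 21 CaM kinase, protein kinase A and protein kinase C genes, 16 were positive (median 0.04) and 3 had unadjusted p under 0.05, among them Prkcb (0.09) and Camk4 (0.10). AMPA and kainate receptors had 9 of 12 positive with Gria1 (0.09) at unadjusted p under 0.05 and NMDA receptors 3 of 6 with Grin2b (0.10). Of the GABA-A receptor subunits, 7 of 12 were positive. None of these lists held a member with the lower level in FC at unadjusted p under 0.05. The 10 pan-neuronal genes were all positive too (median 0.05, range 0.02 to 0.08), and 0 had unadjusted p under 0.05.

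Hormone, stress and metabolic lists had medians between -0.04 and 0.03. Glucocorticoid-induced genes had 7 of 22 positive (median -0.03), with 1 higher and 1 lower at unadjusted p under 0.05. Fkbp5, a co-chaperone of the glucocorticoid receptor, averaged 68.7 ± 8.32 CPM in FC and 65.4 ± 4.73 CPM in noFC, and Sgk1, a kinase induced by the same receptor, 110 ± 24.7 and 117 ± 32.2 CPM (SD, n = 16 each). Cholesterol synthesis genes had 3 of 18 positive (median -0.04). Insig1 (-0.11), Cyp51 (-0.09) and Lss (-0.09) were lower in FC at unadjusted p under 0.05, where 2.85% of all genes were. The summed level of this list was higher in FC in 0 of 4 combinations of strain and drug (mean ratio 0.978). Cytosolic heat shock genes had 13 of 18 positive (median 0.03), with Dnajb5 (0.10) and, in the other direction, Cryab (-0.24), a small heat shock protein abundant in oligodendrocytes. Of 31 ribosomal protein genes 0 were positive, but their median was only -0.03 and 0 had unadjusted p under 0.05. Clock, neuropeptide, endoplasmic reticulum stress and cytokine lists had 0 members at unadjusted p under 0.05. The cytokine list was tested in 10 of 16 members, and Il1b, Tnf, Il6, Ccl2, Ccl4 and Cxcl1 were below the filter on low counts.

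**Figure D2:**
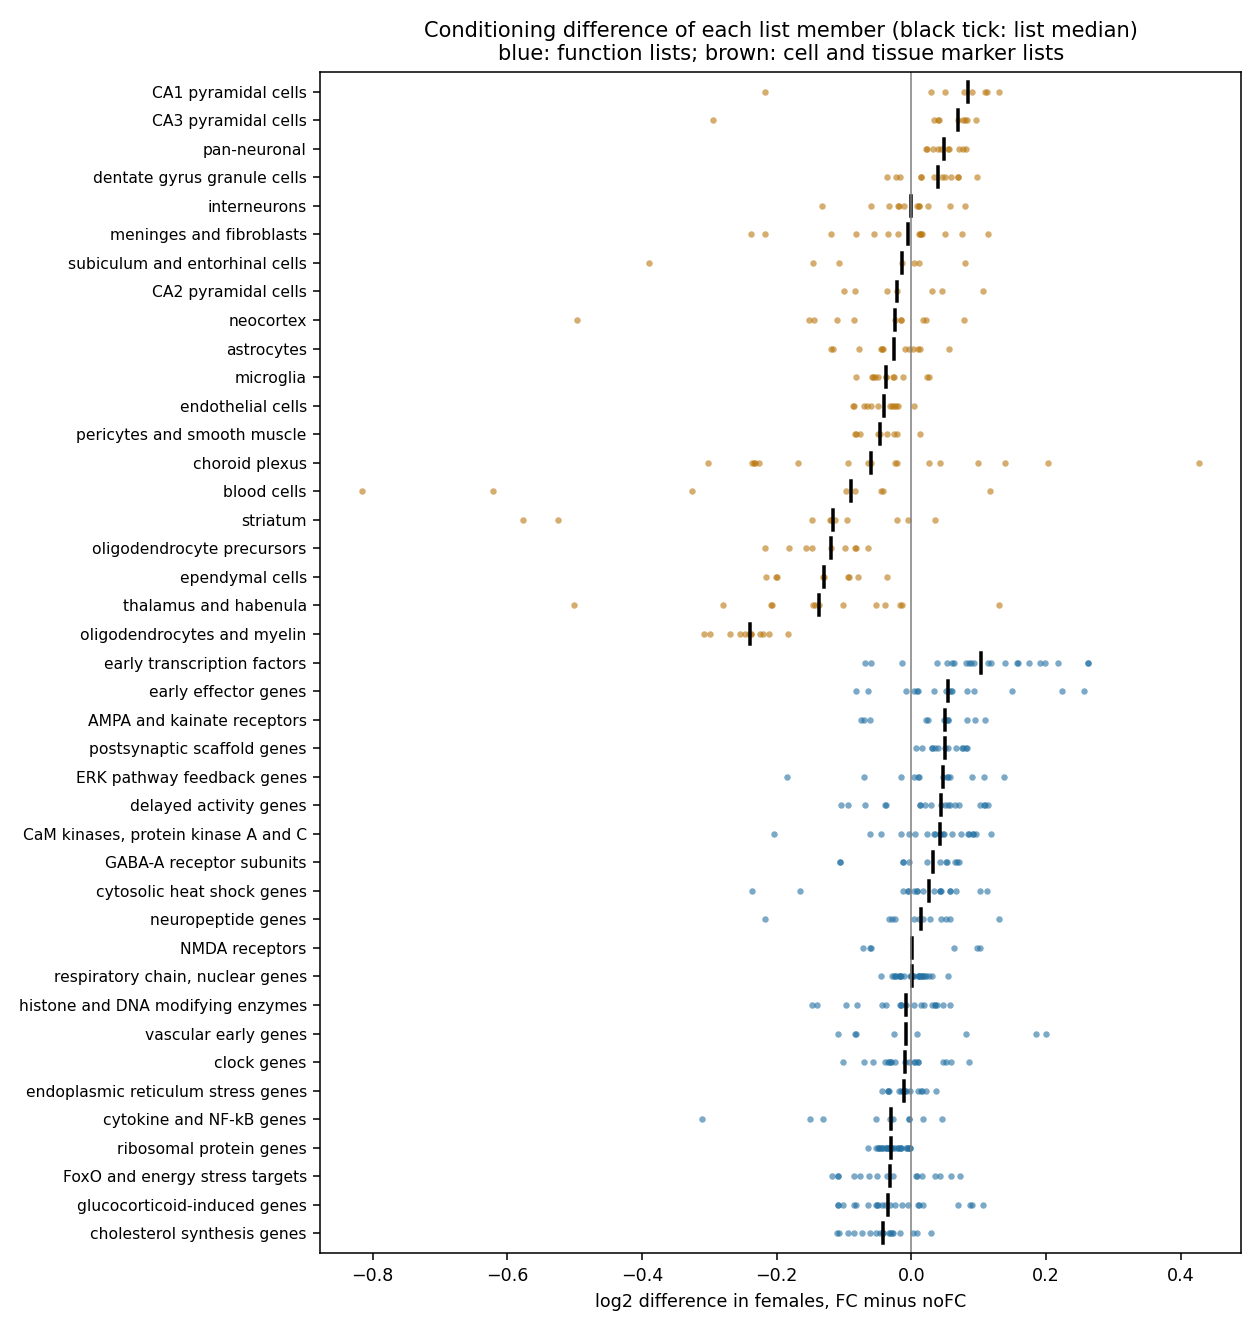
Log2 difference (FC minus noFC, horizontal axis) of each tested member of the gene lists in females, 1 point per gene, with a black tick at the list median; blue points are function lists and brown points marker lists, and the 13 genes of the mitochondrial genome are left out. Early transcription factors have the highest median of the function lists at 0.10, and oligodendrocyte and myelin markers the lowest of the marker lists at -0.24.

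Oligodendrocyte and myelin genes lay on the other side. All 12 had negative log2 differences (median -0.24, range -0.31 to -0.18), and 11 of 12 had unadjusted p under 0.05 with the lower level in FC, where 2.85% of all genes did. This list too was chosen with earlier results of these data known. Aspa, which cleaves N-acetylaspartate to supply acetate for myelin lipids (chr11:73304992-73329596, minus strand), averaged 23.7 ± 5.49 CPM in FC and 29.3 ± 4.33 CPM in noFC (SD, n = 16 each), a difference of -0.31 (SE 0.10, unadjusted p = 0.00296, adjusted p = 0.947 by edgeR). Aspa, picked for its small p within the list, was above its own noFC mean in 1 of 16 FC libraries. Cldn11, the tight junction protein of myelin (-0.30), Ugt8a, which makes the myelin lipid galactocerebroside (-0.27), and Ermn (-0.24) followed. The major myelin protein Mbp (-0.23), named after its value was seen, had an SE of 0.10. In bulk tissue, fewer cells of a type and less RNA per cell cannot be told apart.

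The summed level of the 12 markers ranged from 5269 to 18460 CPM in FC (median 11000) and from 8307 to 16170 CPM in noFC (median 13800), so the groups overlapped. In DBA/2J given saline it was 5269, 8173, 8629 and 9794 CPM in FC and 9740, 10550, 11810 and 12630 CPM in noFC. DBA/2J given ethanol had 8726, 10900, 11030 and 11620 CPM in FC and 8307, 13870, 14050 and 14740 CPM in noFC, with 1 low noFC library. In C57BL/6J the sums were 8636, 13280, 15280 and 16390 CPM in FC and 13750, 13980, 15660 and 16170 CPM in noFC with saline. With ethanol they were 9518, 12000, 12820 and 18460 CPM in FC and 11840, 12630, 13960 and 14500 CPM in noFC. The means were lower in FC in 4 of 4 combinations, by a ratio of 0.853 averaged over them. Below every noFC library of their own strain and drug lay 3 FC libraries of DBA/2J and 2 of C57BL/6J given saline, 1 of C57BL/6J given ethanol and 0 of DBA/2J given ethanol.

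Precursor markers followed in part. All 9 oligodendrocyte precursor genes were negative (median -0.12). At unadjusted p under 0.05, 4 were lower in FC, where 2.85% of all genes were. They were the lineage factors Olig2 (-0.18, SE 0.06) and Olig1 (-0.16), the sialidase Neu4 (-0.12) and the growth factor receptor Pdgfra (-0.08). Olig2 (chr16:91225457-91228677, plus strand) averaged 29.3 ± 3.59 CPM in FC and 33.3 ± 4.67 CPM in noFC (SD, n = 16 each). The myelin counts depended on which libraries were used. Title numbers were split into a lower and a higher set. With the lower title numbers alone, 0 of 12 had unadjusted p under 0.05 (median -0.13). With the higher alone, 11 of 12 did (median -0.39). Leaving out 1 library gave between 4 and 12 of 12. In the titles' code, it was 4 without B6_F_FC_SAL_319 or DBA_F_FC_SAL_325, and 5 without B6_F_FC_EtOH_323, DBA_F_noFC_EtOH_313 or DBA_F_noFC_EtOH_325. It was 6 without B6_F_noFC_SAL_311, B6_F_noFC_SAL_315, DBA_F_FC_EtOH_325, DBA_F_FC_SAL_317 or DBA_F_noFC_EtOH_317, and 7 without B6_F_FC_EtOH_319. The precursor count was 2 without B6_F_noFC_SAL_315. The early transcription factors gave 10 of 22 with the lower title numbers and 1 of 22 with the higher, at a median of 0.10 in the latter.

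Markers of the dissected region were next compared. Markers of the dentate gyrus, CA1, CA2 and CA3, the fields of the hippocampus, were present in every library. Summed levels ranged from 591 to 921 CPM for dentate granule cells, from 535 to 786 CPM for CA1, from 307 to 408 CPM for CA2 and from 454 to 726 CPM for CA3 pyramidal cells. Medians in FC and noFC were 788 and 783 CPM for the dentate gyrus, 650 and 619 CPM for CA1, 339 and 356 CPM for CA2 and 566 and 551 CPM for CA3. Prox1, the granule cell factor, averaged 154 ± 21.7 CPM in FC and 150 ± 22.1 CPM in noFC (SD, n = 16 each). Of the subfield genes, 9 of 12 for the dentate gyrus, 7 of 8 for CA1, 3 of 7 for CA2 and 8 of 9 for CA3 were positive, and Trpc6 of the dentate gyrus (0.10) alone had unadjusted p under 0.05. The negative CA1 gene was Dcn (-0.22), named after its value was seen, which the meningeal list holds too. Interneuron markers had 6 of 12 positive and 0 with unadjusted p under 0.05.

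Neighbouring tissue and other cell types were measured in the same way. Thalamic and habenular markers summed to medians of 391 CPM in FC and 411 CPM in noFC, with 1 of 13 positive and Ramp3 (-0.21) at unadjusted p under 0.05; the habenular factor Pou4f1 was below the filter. Medians in FC and noFC were 297 and 298 CPM for neocortex, 81.9 and 86.3 CPM for striatum and 111 and 112 CPM for ependymal cells. By log2 difference, 9 of 10 striatal markers (median -0.12) and 9 of 9 ependymal markers (median -0.13) were negative, and 0 of either list had unadjusted p under 0.05. Astrocyte (4 of 12 positive), microglia (2 of 12), endothelial (1 of 12) and pericyte (1 of 9) markers had medians between -0.05 and -0.03, and the endothelial gene Itm2a (-0.09) was the only one of them with unadjusted p under 0.05.

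Choroid plexus markers varied widely between libraries. The sum of its 17 markers ranged from 210.5 to 11990 CPM in FC (median 417) and from 234.6 to 19520 CPM in noFC (median 455), and 7 FC and 5 noFC libraries exceeded 1000 CPM. In C57BL/6J given saline the noFC libraries read 360.5, 802.0, 5449 and 19520 CPM, and the FC libraries 210.5 to 395.2 CPM. In DBA/2J given ethanol it was the FC libraries that were high, at 2087, 3182, 4105 and 11990 CPM, and the noFC libraries read 234.6 to 494.8 CPM without overlap. Both conditions had high libraries in DBA/2J given saline, with 297.7, 388.6, 3612 and 7441 CPM in FC and 344.7, 3102, 3732 and 9448 CPM in noFC. In C57BL/6J given ethanol, 1 FC library reached 1869 CPM and the others of both conditions lay between 266.8 and 825.3 CPM. Over all 32 libraries these differences balanced: 6 of 17 markers were positive, 0 had unadjusted p under 0.05, and Ttr, the transthyretin that the choroid plexus secretes, had a log2 difference of 0.43 with an SE of 1.65.

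The counts were also taken without the 12 libraries over 1000 CPM of choroid markers, which leaves 20 libraries and none of DBA/2J with FC and ethanol. There, 2 of 22 early transcription factors had unadjusted p under 0.05, at a median of 0.10, and 2 of 12 myelin genes, at a median of -0.18. With the choroid level as a covariate and all 32 libraries, 11 of 22 early transcription factors and 11 of 12 myelin genes had unadjusted p under 0.05. With the myelin level as a covariate, 5 of 22 early transcription factors did.

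**Figure D3:**
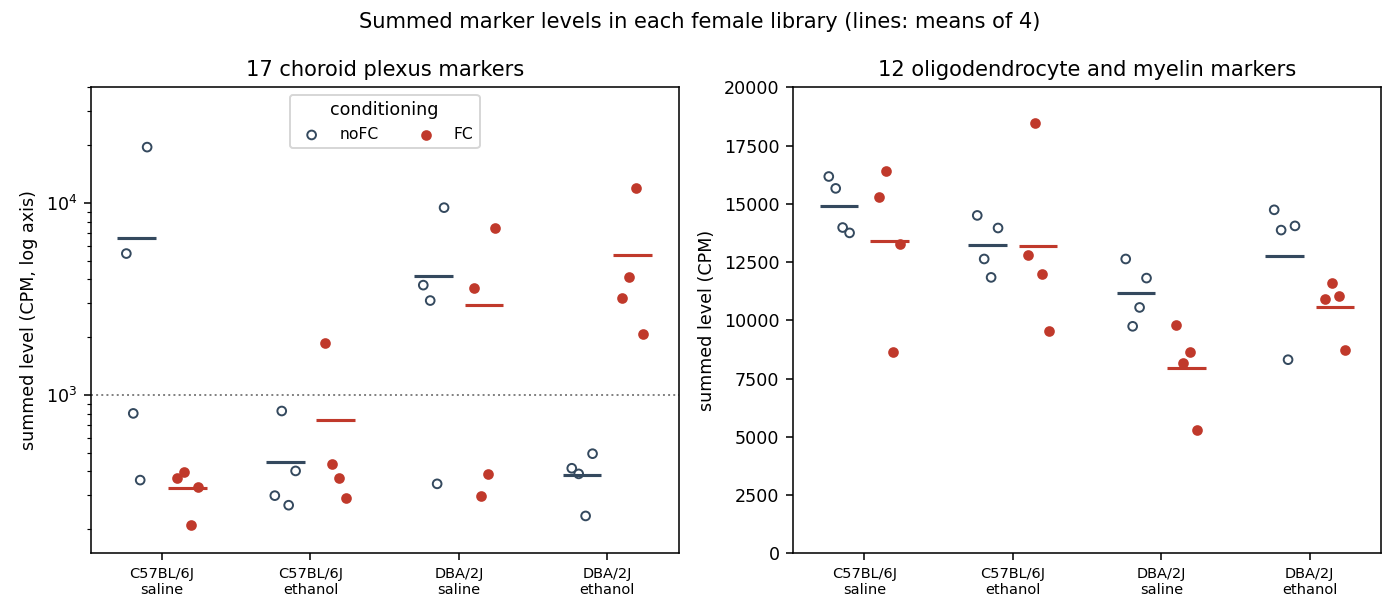
Summed level of 17 choroid plexus markers (left, CPM on a log axis, dotted line at 1000 CPM) and of 12 oligodendrocyte and myelin markers (right, CPM from 0) in each female library by strain and drug; open points are noFC, filled points FC, and lines the means of 4. Choroid plexus levels reach 19520 CPM in noFC of C57BL/6J given saline and 11990 CPM in FC of DBA/2J given ethanol, and myelin sums in DBA/2J given saline are 5269 to 9794 CPM in FC and 9740 to 12630 CPM in noFC.

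The design allowed the effect to be read within each strain. By edgeR, 0 of 19199 genes (0%) were called in C57BL/6J and 0 (0%) in DBA/2J, with smallest adjusted p-values of 0.785 and 0.624. At an unadjusted p under 0.05 there were 873 genes (4.55%) in C57BL/6J and 1072 (5.58%) in DBA/2J. DESeq2 called 1 gene in C57BL/6J, Ide, the insulin-degrading enzyme (-0.45). The difference of the effect between strains (DBA/2J minus C57BL/6J) was called for 0 genes (0%), with 1031 (5.37%) at an unadjusted p under 0.05, 2.95% with a higher and 2.42% with a lower value in DBA/2J.

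Early transcription factors had positive medians in both strains. In C57BL/6J, 21 of 22 were positive (median 0.14) with 6 higher in FC at unadjusted p under 0.05, where 1.67% of all genes were. In DBA/2J 19 of 22 were positive (median 0.10) with 3 higher, where 2.19% of all genes were. Egr1 had log2 differences of 0.24 in C57BL/6J and 0.08 in DBA/2J, and Fos 0.24 and 0.28. For myelin genes the median was -0.09 in C57BL/6J with 0 of 12 at unadjusted p under 0.05, and -0.38 in DBA/2J with 12 of 12, where 2.88% and 3.39% of all genes were lower. The test of that difference had unadjusted p under 0.05 for 1 gene, Mobp (0.05 in C57BL/6J and -0.41 in DBA/2J). Of all genes, 2.42% had a lower value in DBA/2J at that threshold. After adjustment 0 of the 12 were called, so a strain difference was not shown for any of them. Choroid plexus markers had opposite signs in the strains: all 17 were negative in C57BL/6J (median -1.92, 11 at unadjusted p under 0.05) and all 17 positive in DBA/2J (median 1.89, 12 at unadjusted p under 0.05). For the difference between strains their median was 3.95, and 17 of 17 had unadjusted p under 0.05, where 2.95% of all genes had a higher value in DBA/2J; 0 were called by edgeR or DESeq2. The part of this tissue in the strain values of other genes was not tested.

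Conditioning was also read within each drug. By edgeR, 0 of 19199 genes (0%) were called in saline-treated females, with 1651 (8.6%) at an unadjusted p under 0.05, 540 higher (2.81%) and 1111 lower (5.79%). In ethanol-treated females 0 genes (0%) were called, with 941 (4.9%) at an unadjusted p under 0.05, 364 higher (1.9%) and 577 lower (3.01%). The difference of the effect between drugs (ethanol minus saline) was called for 0 genes (0%), with 1581 (8.23%) at an unadjusted p under 0.05, 4.98% with a higher and 3.25% with a lower value under ethanol, and a smallest adjusted p of 0.105. That count was not stable: DESeq2 called 90 genes. Leaving out 1 library gave edgeR 29 calls without B6_F_noFC_SAL_315, 81 without B6_F_noFC_SAL_319, 38 without DBA_F_FC_SAL_325, 36 without DBA_F_noFC_SAL_321, and 0 without any other.

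Of 22 early transcription factors, 8 had unadjusted p under 0.05 with the higher level in FC with saline (median 0.12), where 2.81% of all genes did, and 2 with ethanol (median 0.07), where 1.9% of all genes did. Egr2 had a log2 difference of 0.43 with saline and 0.07 with ethanol, and the difference between drugs had an unadjusted p of 0.0398 (edgeR, not called after adjustment). Fos had 0.33 and 0.18 (unadjusted p of the difference 0.31), Egr4 0.33 and 0.04, and Junb 0.24 and 0.07. Btg2 had 0.14 with saline and 0.13 with ethanol, and Arc 0.29 and 0.23. Over the list, 1 member had a lower value under ethanol at unadjusted p under 0.05 for the difference between drugs, where 3.25% of all genes did. After adjustment edgeR called 0 members, so a smaller effect with ethanol was not shown for this list or any of its members. Scaffold genes had 13 of 13 positive with saline (median 0.09) and 7 of 13 with ethanol (median 0.01), and 0 of 13 had unadjusted p under 0.05 for the difference between drugs. This was not particular to scaffold genes. Pan-neuronal genes had 10 of 10 positive with saline (median 0.09) and 6 of 10 with ethanol (median 0.01). GABA-A receptor subunits had 12 of 12 (median 0.09) and 6 of 12 (median -0.004). In these lists 1 and 2 members were lower under ethanol at unadjusted p under 0.05, where 3.25% of all genes were. Myelin genes had a median of -0.32 with saline, with 10 of 12 lower in FC at unadjusted p under 0.05, where 5.79% of all genes were. With ethanol their median was -0.16 with 0 of 12, where 3.01% of all genes were lower, and 0 of 12 had unadjusted p under 0.05 for the difference between drugs.

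Of all the lists, the choroid plexus markers had the largest median difference between drugs, 5.22, and 17 of 17 had unadjusted p under 0.05 for it, where 4.98% of all genes had a higher value under ethanol. With all libraries edgeR called 0 of the 17. Ttr had adjusted p = 0.105 by edgeR, 6.99e-06 by DESeq2, 0.0141 by edgeR without the filter on low counts, and between 0.0269 and 0.0423 by edgeR without any 1 of the 4 saline libraries whose removal gave calls. All 17 were lower in FC with saline (median -2.66) and all 17 were higher in FC with ethanol (median 2.54), with unadjusted p under 0.05 for 17 and 16 of them. Ttr had log2 differences of -3.36 with saline and 3.74 with ethanol. With saline, the libraries over 1000 CPM were 2 noFC libraries of C57BL/6J and 3 noFC and 2 FC libraries of DBA/2J. With ethanol they were all 4 FC libraries of DBA/2J and 1 of C57BL/6J. Meningeal and fibroblast markers went the same way, with medians of -0.34 with saline and 0.26 with ethanol. The part of these tissues in the drug difference of other genes was not tested.

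**Figure D4:**
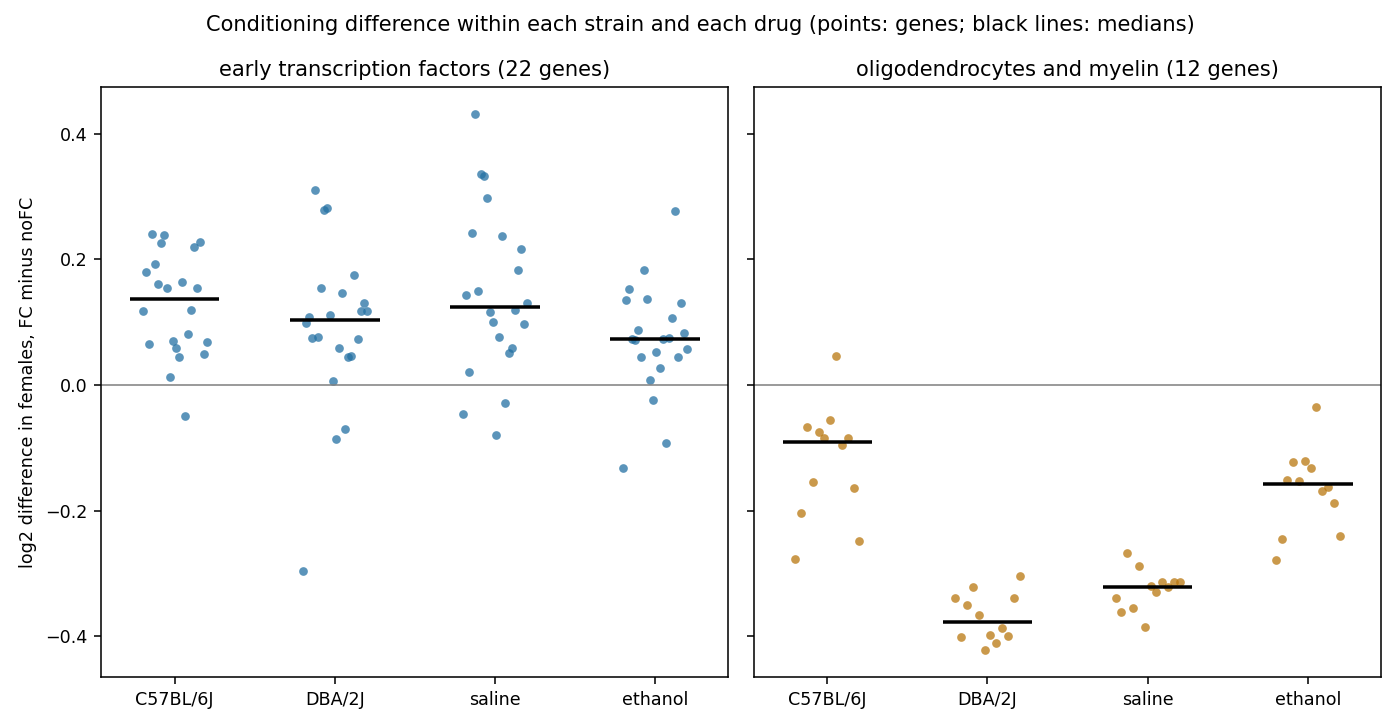
Log2 difference (FC minus noFC) within each strain and each drug for 22 early transcription factors (left) and 12 oligodendrocyte and myelin genes (right) in females, 1 point per gene and a black line at the median. Early transcription factors have medians from 0.07 with ethanol to 0.14 in C57BL/6J, and myelin genes from -0.09 in C57BL/6J to -0.38 in DBA/2J.

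The female effect was last set against that in males, in 1 fit of all 63 libraries. In that fit, edgeR called 0 of 19974 genes (0%) in females and 4 (0.02%) in males, all higher in FC: Ccn1 rose by 0.64 on the log2 scale, Fos by 0.50, Emilin3 by 1.32 and Zfp36l1 by 0.32. At an unadjusted p under 0.05 there were 895 genes (4.48%; 1.85% higher and 2.63% lower) in females and 3460 (17.3%; 9.16% higher and 8.16% lower) in males. The test of the difference between the sexes (male minus female) called 0 genes (0%), with a smallest adjusted p of 0.0992 and 3667 genes (18.4%) at an unadjusted p under 0.05. DESeq2 called 426 genes for that difference. Leaving out 1 male library gave edgeR 340 calls without DBA_M_noFC_EtOH_312, 143 without B6_M_noFC_EtOH_310, 57 without DBA_M_FC_EtOH_324, 1 without DBA_M_FC_SAL_312, and 0 without any other library.

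Early transcription factors were on the positive side in both sexes. Males had 19 of 22 positive (median 0.12) with 11 higher in FC at unadjusted p under 0.05, where 9.16% of all genes were higher in males and 1.85% in females. Fos differed by 0.50 (SE 0.08) in males and 0.26 in females, with an unadjusted p of 0.0445 for the difference by edgeR, and Junb by 0.15 and 0.16. Btg2 had 0.14 in either sex. Arc had 0.29 in males and 0.26 in females, and Ptgs2 -0.03 and 0.22 (unadjusted p of the difference 0.0204). For the list, 3 members had a higher and 2 a lower value in males at unadjusted p under 0.05 in the test of the difference, where 9.04% and 9.32% of all genes did.

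Other groups had opposite signs in the sexes. All 12 myelin genes were positive in males (median 0.11, 0 at unadjusted p under 0.05) and negative in females, and 8 of 12 had a higher value in males at unadjusted p under 0.05 for the difference, where 9.04% of all genes did. All 13 scaffold genes were negative in males (median -0.09, 6 at unadjusted p under 0.05), with 7 of 13 lower in males at unadjusted p under 0.05 for the difference, where 9.32% of all genes were, and the 10 pan-neuronal genes were negative too (median -0.06). For CaM kinases and protein kinases A and C the male median was -0.07 against 0.04 in females, and 12 of 21 had the lower and 2 the higher value in males at unadjusted p under 0.05. Striatal markers were positive in males (10 of 10, median 0.27), and 5 of 10 had a higher value in males at unadjusted p under 0.05 for the difference. Nptx2 (-0.23 in males, 0.11 in females) and Ruvbl1 (-0.08 and 0.12) were single genes of this kind. In males the choroid plexus and meningeal lists were higher in FC (medians 1.61 and 0.59), and 15 of 17 and 12 of 14 of their members had unadjusted p under 0.05, where 9.16% of all genes were higher. The part of these tissues in the sex contrast of other genes was not tested.

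**Figure D5:**
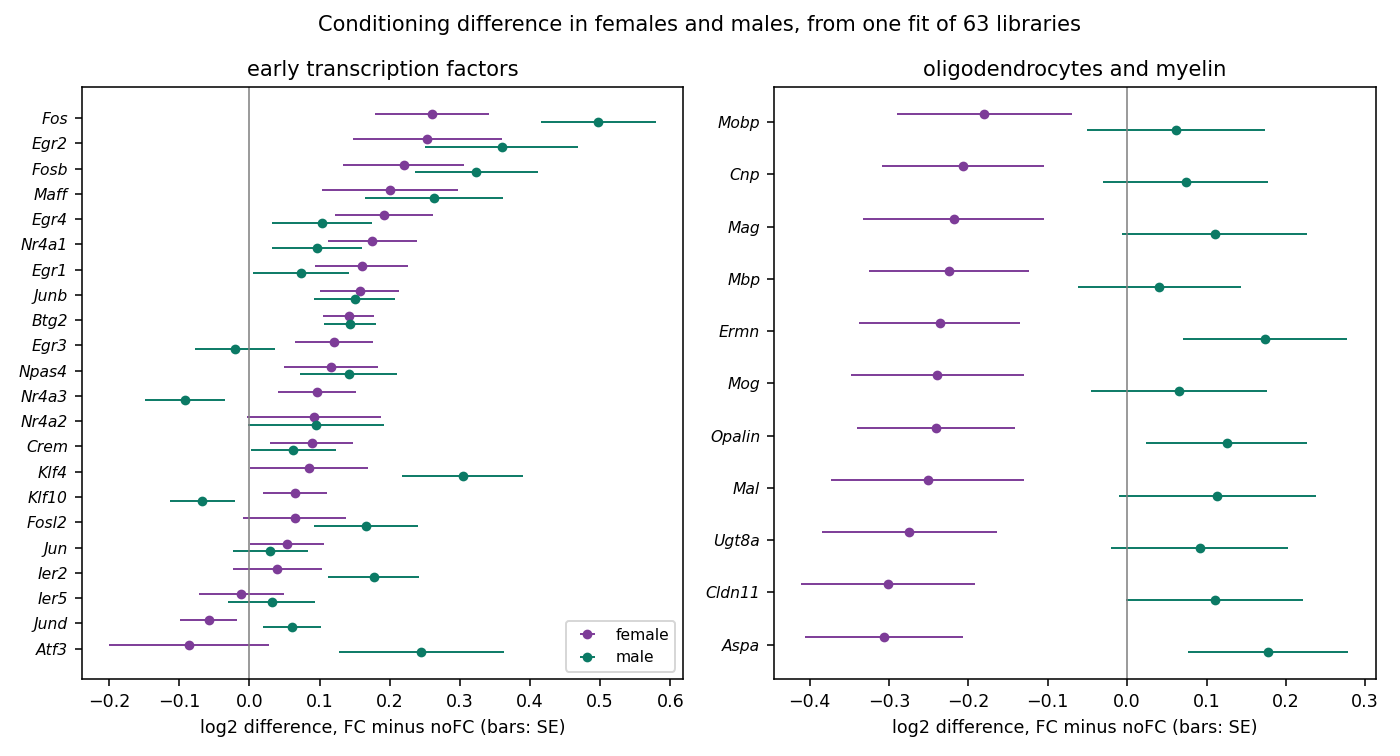
Log2 difference (FC minus noFC) with its standard error for early transcription factors (left) and 11 of the 12 oligodendrocyte and myelin genes (right) in females (purple) and males (green), from 1 fit of 63 libraries. Fos reads 0.26 in females and 0.50 in males, and the 11 myelin genes drawn are negative in females and positive in males (medians over the 12 are -0.24 and 0.11).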

How the data were processed

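Poly(A) RNA of 32 female dorsal hippocampus libraries was analysed, in 8 groups of 4, with 31 male libraries for 1 contrast. The authors deposited a table of whole-number read counts per gene (55401 genes, 55141 with a GENCODE M21 name) and one of counts estimated per transcript (these estimated counts cover 117135 transcripts, 46.8% of values not whole), which was rounded and summed per gene as an alternative. Per the submitters' processing notes, the tools were HISAT2, featureCounts, fastp, DESeq2 and Salmon and the build GRCm38; versions are not given in the sources used here. Columns were matched to labels by title.

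Genes were kept by filterByExpr (minimum count 10, 19199 of 55401 kept with 99.9% of the counts) and scaled by TMM (factors 0.955 to 1.05). edgeR 4.0.16 (R 4.3.3) fitted strain, drug and conditioning by quasi-likelihood, two-sided, with Benjamini-Hochberg adjustment over all genes and a call at adjusted p under 0.05. Effects within strain or drug used 1 coefficient per group, and the sex difference all 63 libraries and 19974 genes. Alternatives were DESeq2 1.42.0, other scaling and filters, covariates, title numbers and leaving out libraries. Other tests were permutation tests with 100000 resamples. Scripts were tested on simulated data.

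Members and lists were chosen with earlier results of these data known. Genes named are the 5 smallest p per direction (up to 10 where called), up to 4 members per list by p, and a set of 18 fixed genes; others were named after their values were seen, and genes with no symbol, Gm numbers or Rik names were left out. A few list members are counted but not reported singly here.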

Additional observations from a re-analysis of the deposited data

Results flagged for a closer look

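Within single groups of 4, 3 of 40 checks found a library far from the other 3, by the gap to its nearest neighbour over the whole range; chance gives about 1 in 20. Total counts of DBA/2J noFC ethanol had 1 library at 34403985 (gap over range 0.853). The summed choroid plexus markers of C57BL/6J FC ethanol had 1 library at 1869 CPM (0.906), with the other 3 at 291.5 to 439.2 CPM. The summed oligodendrocyte and myelin markers of DBA/2J noFC ethanol had 1 library at 8307 CPM (0.865), with the other 3 at 13870 to 14740 CPM.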

How the results depend on the processing

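In females as a whole 0 genes were called under all 14 alternatives, DESeq2 among them. These had 425 to 1977 genes at an unadjusted p under 0.05. Leaving any 1 library out of the edgeR fit also gave 0 calls. DESeq2 gave 1 call in C57BL/6J (Ide, -0.45, adjusted p = 0.0466), 90 for the difference between drugs and 426 for that between sexes; without a filter on low counts the drug difference had 56. Leaving out 1 library gave 0 to 2 calls in ethanol-treated females, 0 to 1 in C57BL/6J, 0 to 0 in DBA/2J, with saline and for the strain difference, 0 to 81 for the drug difference and 0 to 340 for the sex difference. It also gave 4 to 12 myelin, 2 to 6 precursor, 9 to 11 early transcription factor and 2 to 4 effector genes at an unadjusted p under 0.05. The 2 ethanol calls and 1 C57BL/6J call came without B6_F_FC_EtOH_323, and 1 C57BL/6J call without B6_F_noFC_EtOH_323.

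With a replicate block on the title number, 0 genes were called in each comparison. It gave 1405 genes at an unadjusted p under 0.05 in females, 1129 in C57BL/6J, 1444 in DBA/2J, 2076 with saline, 1129 with ethanol, 1763 for the drug, 1214 for the strain and 3914 for the sex difference. The numbers are not explained in the labels. Of 48 same-numbered pairs, 16 deviated together with a correlation above 0.1. The mean correlation of same-numbered pairs was 0.0426, against -0.00494 for pairs with different numbers and groups. In 8 of 32 libraries the correlation was highest with a library of the same number. Without the block, 943 genes had unadjusted p under 0.05 in females as a whole.

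Counts of list members at an unadjusted p under 0.05 moved as follows. Early transcription factors had 5 with the myelin covariate, 1 with the higher title numbers alone and 2 without choroid-rich libraries. Effector genes had 1 with either of the first 2 settings. Myelin genes had 0 with the lower title numbers alone, 0 with the myelin covariate and 2 without choroid-rich libraries. Precursors had 0, 0 and 0 in the same order, and 7 with the higher numbers. The myelin median was 0.0072 with the myelin covariate, which removes the list's own level by construction. Both the covariate and the removal of choroid-rich libraries were chosen after seeing the data.

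Signs turned for these genes. With the myelin covariate the values were Cnp 0.021, Ermn 0.0029, Mag 0.0195, Mal 0.0317, Mbp 0.0024, Mog 0.0191, Xist 0.0106 and Bdnf -0.0071. Without choroid-rich libraries they were Bdnf -0.0065, Sgk1 0.013, Ttr -0.86 and Xist 0.0218. The lower title numbers gave Per1 -0.0097, and the higher gave Ddx3y -0.16 and Xist 0.0393. No filter gave Xist 0.0022. Without single libraries Per1 ranged from -0.0155 to 0.0257, Ttr from -0.19 to 1.04 and Xist from -0.0217 to 0.0198. The cause was not tested. Depth limits genes under about 1 CPM.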
